A study of Gallus gallus with 6 samples.

Results

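A set of 63 transcripts was measured at a lower level in the chicken otocyst cultured with the Wnt inhibitor IWR-1 than in the other otocyst of the same embryo, in each of 3 embryos. The set was drawn from 25752 quantified targets, of which 11819 were Ensembl transcripts with whole-number estimated counts in all 6 libraries, to within 0.001. Whole-number estimates arise where no read of a transcript was divided with another target, and also where a transcript has no reads. Of the 11819, 4939 had a mean level of at least 5 CPM (estimated counts scaled to a common library total), and they serve as the comparison throughout. The 63 were those whose log2 difference, IWR-1 minus DMSO with 0.5 CPM added to both, was -0.5 or lower in all 3 embryos. The levels of all 6 libraries therefore chose the set, and its differences between treatments are given as a description, with no test.

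Per the sample labels, the otocysts came from White Leghorn embryos at embryonic day 2.5, while the design text of the series gives day 3. They were dissected free of the mesenchyme around them. Each was cultured alone for 24 h, the right one with 300 µM IWR-1 (n = 3) and the left one with DMSO, the solvent (n = 3). The labels' titles number the embryos 35, 39 and 40, and the pairing by embryo rests on those numbers. Body side and treatment coincide in every embryo and cannot be told apart.

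The otocyst is the closed epithelial vesicle that gives rise to the inner ear and its ganglion neurons. In the canonical Wnt pathway, a Wnt ligand at the cell surface keeps beta-catenin from being degraded, so that beta-catenin enters the nucleus and turns on genes together with TCF/LEF factors. IWR-1 stabilises Axin, a scaffold of the complex that degrades beta-catenin, and thereby lowers this output. In the ear, Wnt ligands from the dorsal hindbrain are known to act on the dorsal side of the otocyst. The deposited tables do not pair transcript identifiers with gene names, and 0 identifiers were matched to a symbol, so known Wnt targets and otic marker genes were not looked up, and the tissue was not checked against markers. Transcripts are named here by their length, which differs among all 63, and 2 also by identifier.

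The libraries held 10060014 to 15217029 estimated counts, and 43.6% to 44.5% of these fell on whole-number transcripts. The difference between length and effective length, which reflects the mean fragment length, was 211.0 to 212.1 bases in 4 libraries. It was shorter in 2 libraries, at 182.4 bases for DMSO in embryo 39 and at 191.9 bases for IWR-1 in embryo 40. The median log2 difference of the 4939 transcripts was 0.006 in embryo 35, 0.111 in embryo 39 and 0.011 in embryo 40. In embryo 39, 24.9% of them were higher in IWR-1 by at least 0.5 on the log2 scale and 9.27% were lower by as much, a wider spread than in the other embryos.

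The 63 transcripts made up 1.28% of the 4939, and 50 transcripts (1.01%) met the mirrored rule, at 0.5 or higher in every embryo. Their median log2 difference was -0.899 in embryo 35, -0.995 in embryo 39 and -0.952 in embryo 40. Averaged over the embryos, it ran from -3.13 to -0.64, with 28 transcripts at -1 or lower, and the median of the 63 was -0.951 against 0.043 for the 4939. The limit cut through a continuous range. Just inside it, a transcript of 3888 bases differed by -0.50 in embryo 39, and one of 2637 bases by -0.50 in embryo 35. Just outside it, a transcript of 3363 bases missed by its -0.49 in embryo 35. Without embryo 35, 39 or 40, the rule would have been met in the remaining pairs by 98, 117 or 94 transcripts. Among transcripts without whole-number estimates, 90 of 7091 with a mean of at least 5 CPM met the rest of the rule, which is 1.27%.

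**Figure D1:**
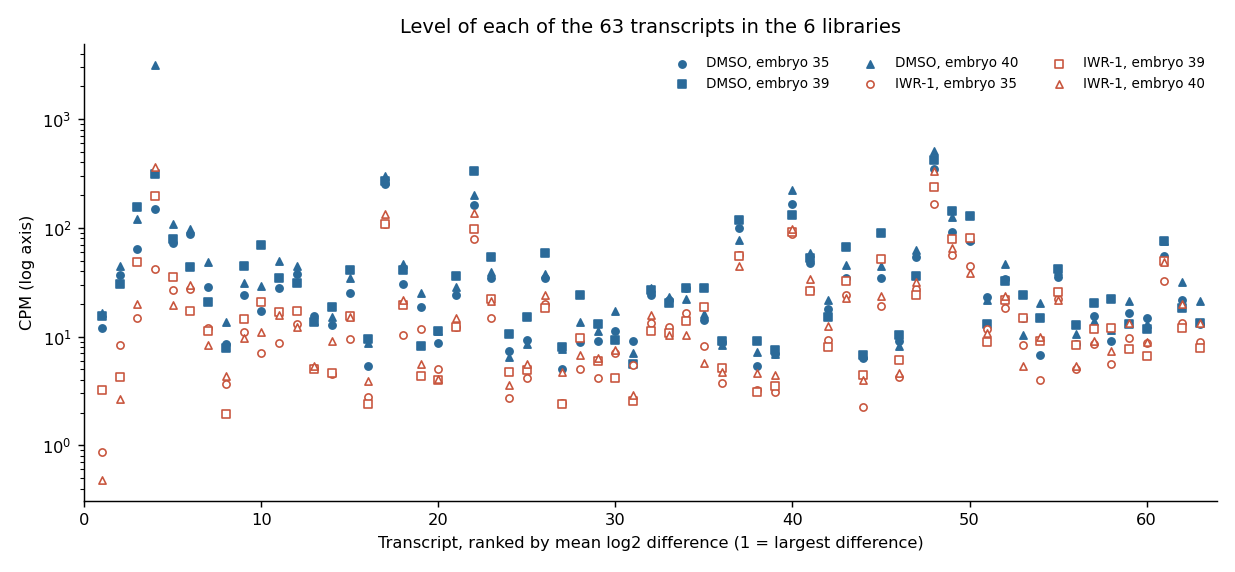
CPM on a log axis for each of the 63 transcripts, in order of their mean log2 difference. Filled blue symbols are the 3 DMSO libraries and open red symbols the 3 IWR-1 libraries, with 1 symbol shape per embryo. One DMSO library, that of embryo 40, stands far above the rest at the fourth transcript, where it reached 3166 CPM.

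**Figure D2:**
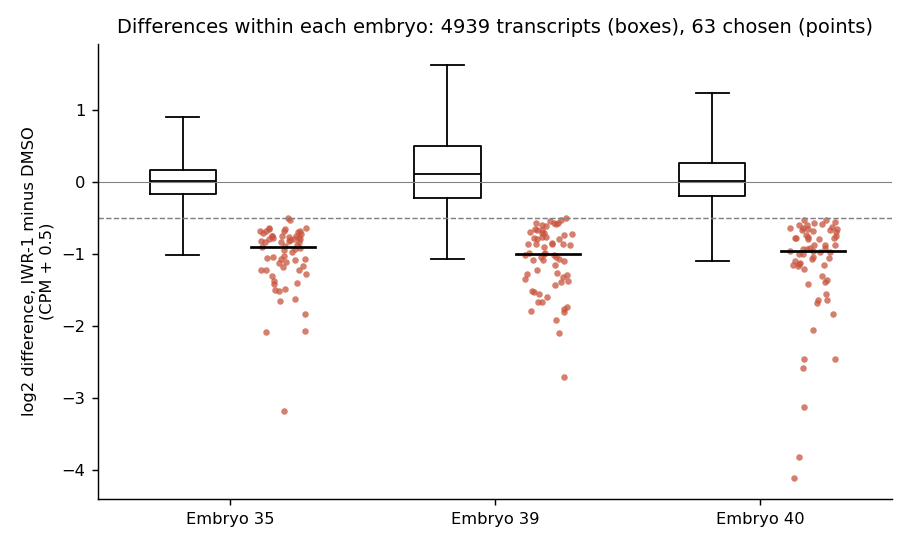
Log2 difference, IWR-1 minus DMSO, within each embryo. Boxes show the quartiles and median of the 4939 transcripts with whiskers at their 1st and 99th percentiles, red points are the 63 transcripts, black bars their medians (-0.899, -0.995 and -0.952), and the dashed line marks the limit of -0.5.

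The largest mean difference belonged to ENSGALT00000010350.4, a transcript of 2020 bases. It measured 0.869, 3.24 and 0.480 CPM in the IWR-1 libraries of embryos 35, 39 and 40, and 11.9, 15.5 and 16.4 CPM in the DMSO libraries of the same embryos. All 3 DMSO values lay far above all 3 IWR-1 values. The differences were -3.18, -2.10 and -4.11, a mean of -3.13 ± 1.01 on the log2 scale (SD, n = 3 embryos), or 8.75-fold lower. In the IWR-1 libraries it rested on only 13, 42 and 7 counts, and the 7 counts in embryo 40 have an exact 95% Poisson interval of 0.193 to 0.99 CPM. Such intervals cover counting error only. Since 0.5 CPM was added, the fold understates the ratio of values this low.

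A transcript of 2170 bases came next. It measured 8.42, 4.24 and 2.68 CPM in IWR-1 and 36.9, 30.5 and 44.2 CPM in DMSO, in the order of embryos 35, 39 and 40 that is kept below. Its mean difference was -2.86 ± 0.88 (SD, n = 3), and the groups did not overlap. The transcript of 1937 bases was more abundant, at 14.9, 48.7 and 19.9 CPM in IWR-1 against 64.6, 155.3 and 121.9 CPM in DMSO. Its difference was -2.11 ± 0.46 (SD, n = 3), again without overlap. Among the 63, only the transcripts of 2020 and 2170 bases stood at -2 or lower in every embryo, and 12 stood at -1 or lower in every embryo. For each of these, fewer cells that express the transcript and less of it per cell cannot be told apart in RNA from whole otocysts.

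The member with the highest mean CPM in DMSO was ENSGALT00000075828.1, a transcript of 566 bases, and it was also the least even. It measured 41.6, 198.2 and 362.8 CPM in IWR-1 and 150.1, 313.4 and 3166 CPM in DMSO. Its rank rests on the DMSO library of embryo 40. In the DMSO libraries of embryos 35 and 39 the transcript of 1602 bases was higher, at 349 and 418 CPM. The DMSO library of embryo 40 stood at 8.73 times the next highest library, and the IWR-1 value of embryo 40 exceeded both other DMSO values, so the groups overlapped. The difference was -1.84, -0.66 and -3.12 in the 3 embryos, a mean of -1.87 ± 1.23 (SD, n = 3). That is 3.67-fold lower, which became 2.38-fold without embryo 40 and 5.58-fold without embryo 39. Of the 4939 transcripts, 2 were at least 5 times as high in the DMSO library of embryo 40 as in every other library, and none had such a peak in another library. This transcript alone held 50.1% of the summed CPM of the 63 in that library. Without it, the other members summed to 1187.9, 1502.7 and 1537.4 CPM in IWR-1 and to 2464.9, 3170.3 and 3150.9 CPM in DMSO.

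Other members differed by nearly the same amount in every embryo. The transcript of 2588 bases measured 107.9, 109.3 and 135.5 CPM in IWR-1 and 251.7, 267.5 and 298.3 CPM in DMSO. Its differences of -1.22, -1.29 and -1.14 gave a mean of -1.21 ± 0.08 (SD, n = 3), or 2.32-fold lower, with a clear gap between the groups. At a low level, the transcript of 2397 bases measured 5.15, 5.09 and 5.35 CPM in IWR-1 and 15.5, 13.7 and 14.0 CPM in DMSO. Its libraries were tightly grouped on both sides, and the difference was -1.39 ± 0.10 (SD, n = 3). The range of the difference over the 3 embryos was under 0.3 in 17 of the 63 transcripts and over 1 in 9. Its median was 0.472. It was smallest, at 0.078, in a transcript of 2655 bases, which had a mean difference of -0.65 and overlapping groups. The SD over the embryos had a median of 0.246 in the 63 and 0.276 in the transcripts that serve as the comparison. The rule kept every difference at -0.5 or lower, which limits the range where the mean is near -0.5. Nothing is therefore read from the evenness of the 63.

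**Figure D3:**
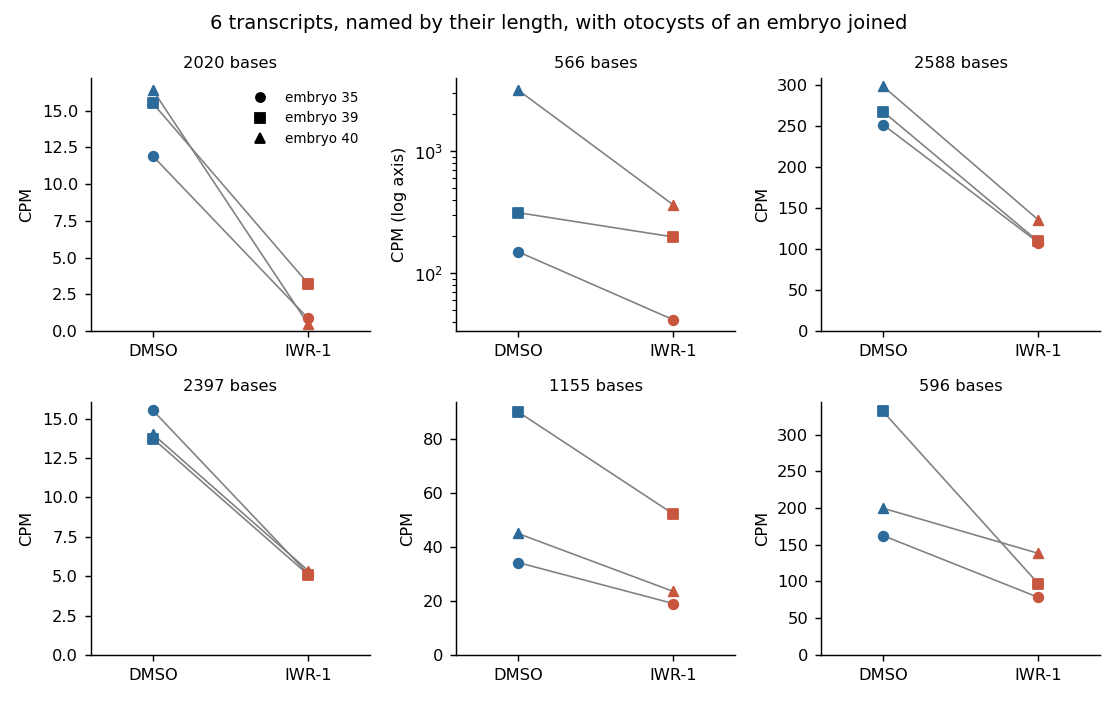
CPM in DMSO and IWR-1 for 6 of the 63 transcripts, each named by its length, with the otocysts of an embryo joined by a line and 1 symbol shape per embryo. The panel of 566 bases has a log axis and the others start at 0. The lines of the transcript of 2588 bases run nearly parallel. In the transcript of 2397 bases the lines lie close together, and those of embryos 35 and 40 cross near the IWR-1 end. In the transcript of 596 bases the lines of embryos 39 and 40 cross.

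In 50 of the 63 transcripts (79.4%), the highest IWR-1 library lay below the lowest DMSO library. The same held for 6.7% of the 4939, but the rule used this contrast and nothing can be read from the gap between the shares. In 4 transcripts the lowest DMSO value was at least 2 times the highest IWR-1 value. For this wider gap the share of the 4939 was not computed, and nothing is read from the count. The groups of the other 13 overlapped, and in these the embryos differed in level. In the transcript of 1155 bases, IWR-1 gave 19.0, 52.3 and 23.5 CPM and DMSO gave 34.3, 90.2 and 45.0 CPM. Embryo 39 was highest under both treatments, and its IWR-1 value exceeded the DMSO values of the other embryos, yet the differences were -0.83, -0.78 and -0.92. The transcript of 1226 bases followed the same order, with 7.08, 20.7 and 11.0 CPM in IWR-1 and 17.2, 70.1 and 29.5 CPM in DMSO. Among the 13, embryo 39 gave the highest IWR-1 library in 7, embryo 40 in 5 and embryo 35 in 1, and embryo 35 gave the lowest DMSO library in 9.

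The embryo with the highest level was the same under both treatments in 40 of the 63 transcripts (63.5%), against 42.2% of the 4939. The rule set a limit on the difference within every embryo and so used these levels, and the excess is not a result about the 63. Embryo 39 had the highest DMSO library in 31 transcripts (49.2%), embryo 40 in 27 (42.9%) and embryo 35 in 5 (7.94%). Over the 4939 the shares were 33.1%, 36.7% and 30.2%. The largest difference fell in embryo 40 in 26 transcripts (41.3%), in embryo 39 in 24 (38.1%) and in embryo 35 in 13 (20.6%). Over the 4939 the lowest log2 difference fell in these embryos in 35.1%, 31.3% and 33.6%. The rule used these levels and differences, so neither comparison is a result about the 63. The coefficient of variation between the 3 libraries of a group had a median of 23.7% in DMSO and 25.6% in IWR-1 for the 63. For the 4939 it was 18.9% and 11.1%. The 63 were also less abundant, with median levels of 24.0 CPM in DMSO and 10.9 CPM in IWR-1 against 40.9 and 42.3 CPM. The rule used these libraries, so neither the higher variation nor the lower level is a result about the 63. The part of counting error in the variation was not tested.

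The 63 transcripts were 380 to 4273 bases long, with a median of 1761 bases against 1917 bases for the 4939. Their quartiles were 1328 and 2267 bases, and those of the 4939 were 1306.5 and 2801 bases. The differences that the rule used varied with length among the 4939. In embryo 39 their median was 0.325 from 2200 bases and -0.174 under 700 bases. In embryo 40 the order was reversed, at -0.03 and 0.117. Whether this has a part in the lower median and upper quartile of length of the 63 was not tested, so nothing is read from them. Only 6 were under 700 bases (9.52%, against 6.56% of the 4939). These 6 had a median difference of -1.04 in embryo 35, whose libraries had fragments of like length. The median was -1.29 in embryo 39, where the DMSO library had the shorter fragments, and -0.77 in embryo 40, where the IWR-1 library had them. Among all 324 of the 4939 under 700 bases, the medians moved in the same order, at -0.08, -0.17 and 0.12. Divided by effective length, the medians of the 6 were -1.04, -1.20 and -0.83. The part of fragment length in these differences was not tested.

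Among the short members, the transcript of 596 bases differed in amount from embryo to embryo. It measured 78.4, 97.0 and 138.3 CPM in IWR-1 and 162.5, 331.6 and 199.8 CPM in DMSO, without overlap. Its difference was -1.05, -1.77 and -0.53 in the 3 embryos, and per effective length -1.05, -1.68 and -0.59. The transcript of 409 bases had its largest difference in embryo 39 as well, with 12.4, 12.2 and 14.7 CPM in IWR-1 and 24.1, 35.9 and 28.4 CPM in DMSO. The transcript of 605 bases was more even, at 56.0, 55.7 and 44.6 CPM in IWR-1 and 99.6, 117.3 and 77.4 CPM in DMSO.

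At the other end, the 18 members of 2200 bases or more had medians of -0.89, -0.86 and -1.05 in embryos 35, 39 and 40. In embryo 39 the 2000 transcripts of that length among the 4939 had a median of 0.33, and still 0.34 per effective length, while in embryos 35 and 40 they stood at 0.04 and -0.03. The rule itself placed every member at -0.5 or lower in embryo 39, so nothing is read from that gap. The 14 members of 700 to 1500 bases had their lowest median, -1.35, in embryo 39.

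**Figure D4:**
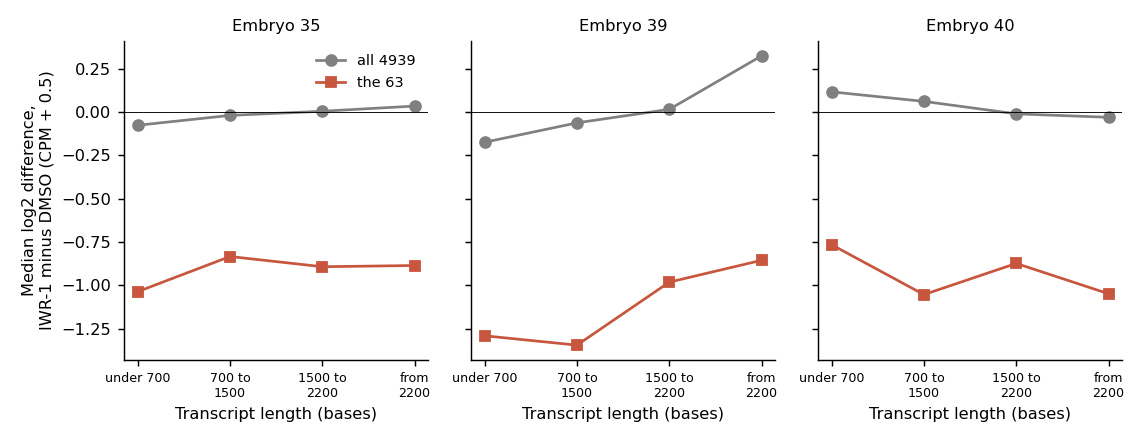
Median log2 difference, IWR-1 minus DMSO, by length class in each embryo, for the 63 transcripts (red squares) and the 4939 (grey circles). In embryo 39 the grey medians climb from -0.17 under 700 bases to 0.33 from 2200 bases. The red medians lie between -1.35 and -0.77 in all panels.

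Levels of different transcripts were compared as TPM, which accounts for length. The 63 had a median of 20.0 TPM in DMSO and 9.43 TPM in IWR-1, against 30.1 and 31.7 TPM for the 4939. The step between treatments in the 63 follows from the rule that chose them, and nothing is read from their lower level. Mean levels in DMSO ran from 4.18 TPM, in a transcript of 3900 bases, to 4130 TPM in the transcript of 566 bases. The next in order were the transcripts of 596 bases, with 699.7 TPM, and of 1602 bases, with 369.8 TPM. The latter measured 164.2, 240.2 and 335.4 CPM in IWR-1 and 349.3, 418.1 and 507.7 CPM in DMSO. Its groups did not overlap, by a narrow margin, and the difference was -0.83 ± 0.25 (SD, n = 3). By level, the median log2 difference was -0.896 in the 9 members under 10 CPM in DMSO and -1.11 in the 7 members from 100 CPM. The minimum mean of 5 CPM and the added 0.5 CPM both limit the difference at low levels, so nothing is read from that order. On the TPM scale all 63 were lower in IWR-1 in every embryo, and 8 came above -0.5 in an embryo. TPM rests on the same counts as the rule, so this direction was largely fixed in advance. At the measured depth, 37 of the 63 had at least 100 counts in every library and 2 had under 30 counts in a library.

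**Figure D5:**
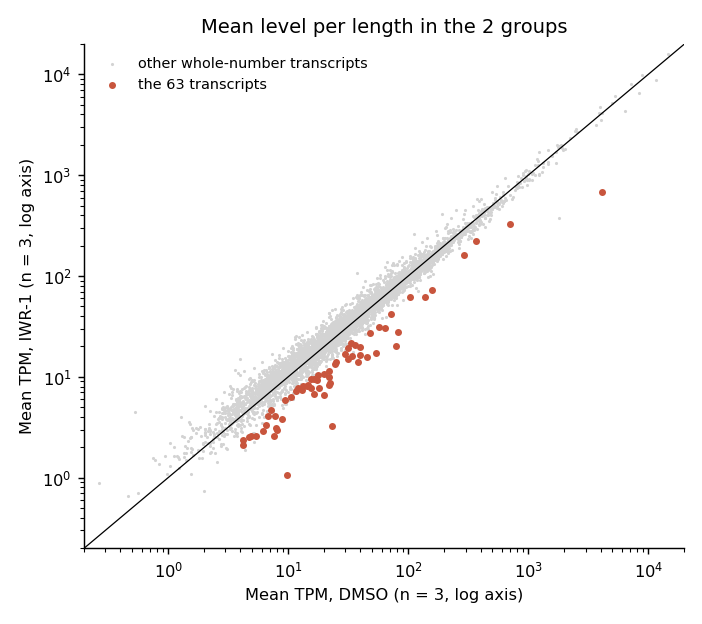
Mean TPM in IWR-1 against mean TPM in DMSO (n = 3 libraries each, log axes) for the 63 transcripts in red and the other whole-number transcripts of at least 5 CPM in grey, with the line of equal level. The red points lie below the line over the whole range, up to 4130 TPM in DMSO, which the rule on CPM largely fixed.

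In a test over the whole table (edgeR quasi-likelihood test, Benjamini-Hochberg adjustment, 16524 targets that passed a filter on low counts), 1 target was called lower in IWR-1 at an adjusted p under 0.05, which is 0.00605%, and none higher. The 1 target was not among the whole-number Ensembl transcripts and is not a member. All 63 members passed the filter and 0 were called, while 57 had an unadjusted p under 0.05, against 3.55% of all targets with such a p in this direction. DESeq2 called 27 of the 63, beside 0.587% of all targets called lower. Among whole-number targets alone, edgeR called 5 of the 63 beside 0.0942% of 6371 called lower, and with the embryo as a replicate block 48 of the 63 beside 1.44%. These tests use the contrast that chose the members, so the counts place the set in the table and are no evidence for it. The fits differed widely for single members. The transcript of 2588 bases had an adjusted p of 0.169 in edgeR's whole-table test and 0.232 with the block. It was 8.19e-15 in DESeq2, and 0.0167 and 3.14e-06 in edgeR on whole-number targets without and with the block. For the transcript of 566 bases the values in the same order were 0.705, 0.502, 0.564, 0.433 and 8.31e-06. These values are no evidence either, since the rule used this contrast.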

How the data were processed

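RNA of 6 single otocysts was amplified with a SMART-Seq v4 kit, made into libraries with Nextera XT and sequenced as 43-base paired reads, per the labels' protocols. The authors deposited 1 table per library with estimated counts and TPM per target, per the column names. The estimated counts are not normalized and not always whole. TPM is counts per effective length, scaled to a common total of these rates. The submitters' processing notes name bcl2fastq and kallisto. The transcript set, genome build and read filters are not given in the sources used here.

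CPM was computed from the estimated counts and their library sum. The tests used rounded estimated counts and edgeR 4.0.16 (R 4.3.3) with TMM factors, after a low-count filter by filterByExpr with its defaults (10 counts, and 15 in all). They had no covariate, and the embryo was added as a replicate block in an alternative. DESeq2 1.42.0 and limma 3.58.1 served as further alternatives. The edgeR, DESeq2 and limma tests were tried on simulated counts without differences between embryos. The rule for members was not tried on simulated data. Otocysts with the same number come from the same embryo, per the titles. Their deviations from the group means correlated at 0.121, 0.123 and 0.09 for embryos 35, 39 and 40. Between an IWR-1 and a DMSO otocyst of different embryos the correlations ran from -0.093 to -0.038. Deviations from a mean of 3 libraries are tied to each other, and so are these correlations. Without the block, the p-values weigh the treatment difference against the spread between otocysts of a group. With the block, they weigh it against how far the differences within embryos vary. Both rest on only 3 embryos.

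The 63 members, the lists and the alternatives were chosen with earlier results of these data known. Identifiers were printed for the member with the largest mean difference and the one with the highest DMSO level, by a rule for tables without gene names. Other members were described after their values were seen, and planned lists of Wnt, otic and cell type genes were not used, for want of names.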

Additional observations from a re-analysis of the deposited data

How the results depend on the processing

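The number of members was 63, and it stayed between 46 and 81 with TMM or DESeq2 scaling, TPM, other offsets, a minimum of 10 CPM and a looser tolerance for whole numbers. With TMM and DESeq2 size factors the 80 and 81 transcripts held all 63, and on TPM the 53 held 49 of them. It was 105 with a minimum of 1 CPM, 128 with none, 12 at a limit of -1, 801 at a limit of 0, 153 without the demand on whole numbers and 94 to 117 with an embryo left out. Without the pairing by embryo (no replicate block), every IWR-1 library against every DMSO library gave 21 transcripts. All lie among the 63 by construction, since this stricter demand includes the pairs of the same embryo. The pair of embryo 35 alone, an alternative added after seeing the data, gave 315. The members' median log2 difference of -0.951 became -1.015 with TMM, -1.017 with DESeq2 size factors, -0.899 on TPM and -1.016 to -0.92 with an embryo left out. The number of members whose groups do not overlap, 50, ranged from 49 to 60 over all settings, while the share of the 4939 transcripts ran from 4.68% on TPM to 18.6% without embryo 39, the setting that gave 60, against 6.7%. Calls over all targets (lower and higher in IWR-1) were 97 and 98 with DESeq2, 122 and 129 with DESeq2 and the replicate block, 6 and 1 on whole-number targets, and 92 and 85 on whole-number targets with the replicate block. They were 1 and 1 on log2(TPM + 1), and 0 to 1 lower with a library left out, 0 whenever it was an IWR-1 library. The causes were not tested. The replicate block changed neither count of calls in edgeR's whole-table test. With 3 embryos and 7 counts in the sparsest value, differences of sparse members are imprecise.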
